A study of Arabidopsis thaliana with 4 samples.

Results

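The genes described here are those whose transcript signal was highest in only 1 of 4 arrays, the array titled as GR-REV seedlings given dexamethasone. A member is a probe set whose log2 signal on that array lay at least 1 unit (2-fold) above each of the other 3 arrays, and for which dexamethasone-treated wild type and mock-treated wild type lay within 1 unit of each other. Of 22746 probe sets, 85 met this rule, or 0.374%. HAT2, XTH32, AT4G18970 and 2 genes of a stretch of chromosome 3, AT3G19370 and PUB25, also met it but are left out by name or position, which leaves 80 members. Of these, 33 have 1 gene listed in the annotation used, 1 has several and 46 have none. A left-out locus can therefore not be recognised among the members without a listed gene. The members were chosen by their signals on all 4 arrays, so the distance between arrays is a description and not a finding, and no test was made of it.

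The study placed REVOLUTA (REV), with its microRNA complementary site mutated, behind the viral CaMV35S promoter, as a fusion to the glucocorticoid receptor (GR) domain at its amino terminus. The groups are GR-REV seedlings with 50 µg/ml dexamethasone, GR-REV seedlings with mock treatment, wild type seedlings with 50 µg/ml dexamethasone and wild type seedlings with mock treatment. All 4 received 0.1% ethanol for 1 h, and all are seedlings of the Landsberg erecta (Ler) accession, grown in shaken flasks under constant light. Each group is 1 flask of pooled seedlings and 1 Affymetrix ATH1 array, so no value has a replicate error. The promoter is active in most tissues, so the fusion is not limited to the cells in which REV normally acts. For the GR-REV arrays the source names give the treatments the other way round from the titles and treatment protocols; the titles are followed here. With the source names, every member would be high in the mock flask and lower after dexamethasone.

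REV is a transcription factor of the HD-ZIP III class, a homeodomain joined to a leucine zipper. In Arabidopsis this class promotes upper (adaxial) leaf identity, vascular patterning and meristem formation, and microRNAs restrict its transcripts. A protein fused to the GR domain is held in the cytoplasm until a glucocorticoid such as dexamethasone binds, after which it enters the nucleus. Genes whose transcript differs soon afterwards only where both the fusion and the hormone are present are the candidates such an experiment looks for.

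The values are MAS5 signals on a linear scale. Signals under a floor of 91.4, the 40th percentile of all values, were set to the floor before log2 was taken, and a fold against an array at the floor is given as "at least". The share of probe sets above the floor was 58.9% for dexamethasone-treated GR-REV, and 59.0% to 62.9% on the other arrays. The mock-treated wild type array stood apart with the highest share and with a control signal for 25S rRNA of 293, against 768 to 929 elsewhere. Of 80 members, 12 had mock-treated wild type as their nearest array. Leaving out mock-treated wild type removes it as a comparator and also removes the bound on the wild type difference. All 80 then still met the remaining rule, by construction, and the count grew to 103. Of 24 marker genes chosen for 9 tissues and cell types, the annotation matched 2. The root hair gene EXPA7 was below the floor on all 4 arrays, at 45.4, 75.7, 45.3 and 61.4 for dexamethasone-treated GR-REV, mock-treated GR-REV, dexamethasone-treated wild type and mock-treated wild type. The guard cell gene CHX20, in the same order, was at 103, 238, 268 and 307, lowest where the members are highest. Its part in the results was not tested, and in whole seedlings fewer cells of a type and less RNA per cell cannot be told apart. REV itself was not analysed here.

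Signals of the members in dexamethasone-treated GR-REV ran from 183 to 11844 with a median of 522, at the 73.3rd percentile of that array. The distance to the nearest other array had a median of 1.23 on the log2 scale, or 2.34-fold, and reached 3.90. At least 3-fold above every other array were 15 members, and at least 4-fold 6 members. The nearest other array was mock-treated GR-REV for 33 members, dexamethasone-treated wild type for 25 and mock-treated wild type for 12. In the remaining 10, all 3 other arrays were at the floor. On all 4 arrays 47 members exceeded the floor.

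**Figure D1:**
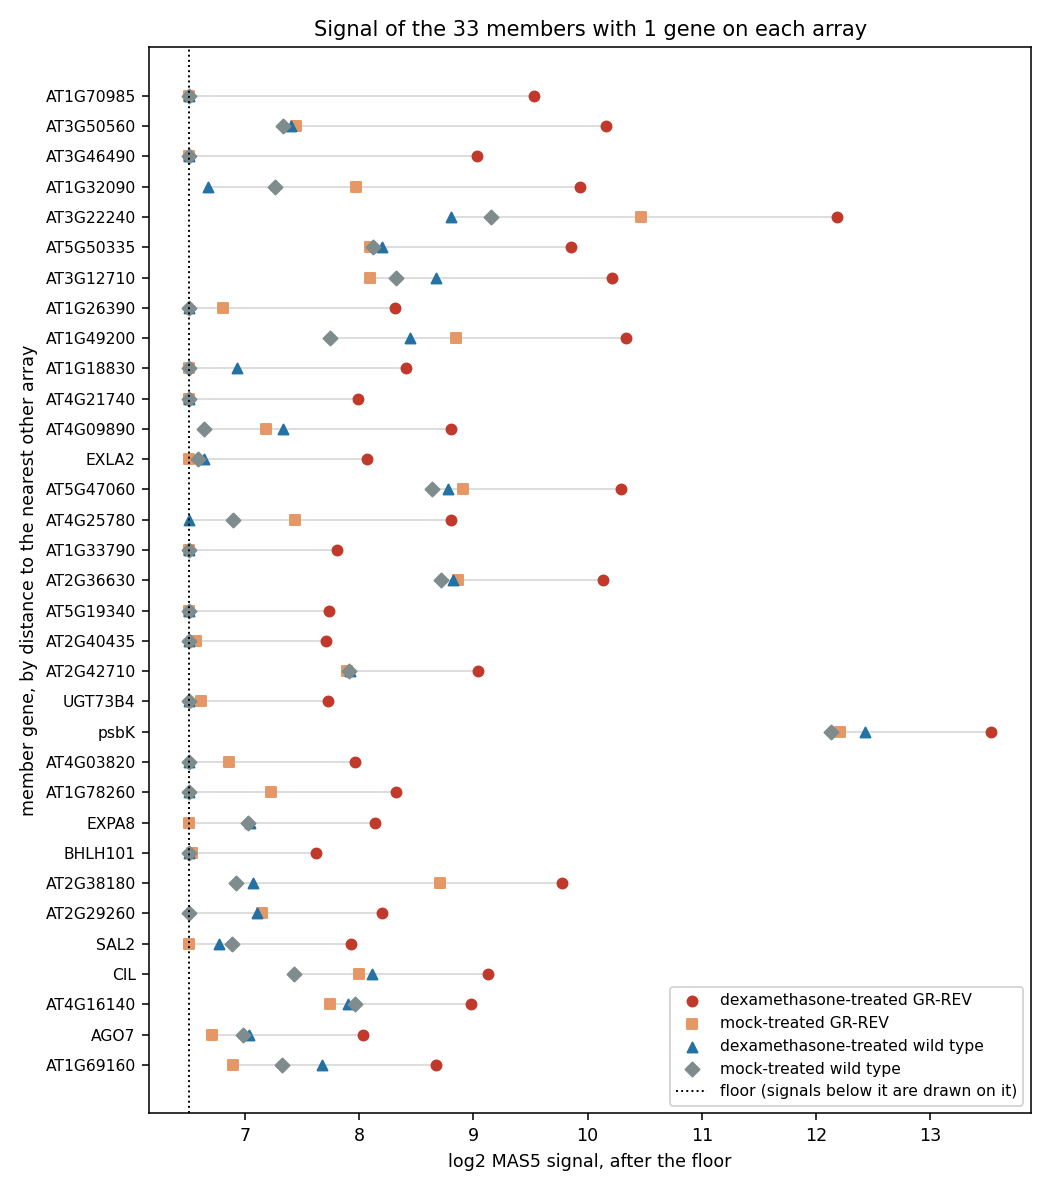
Log2 MAS5 signal (x axis, after the floor) of the 33 members with 1 gene (y axis, ordered by distance to the nearest other array); each point is 1 array and the dotted line is the floor. Dexamethasone-treated GR-REV is the rightmost point in every row, by the rule, and for AT1G70985, AT3G46490, AT4G21740, AT1G33790 and AT5G19340 the other 3 points lie on the floor.

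AT3G50560 had the widest distance among members with 1 gene that were above the floor on all 4 arrays. Its signal was 1145 in dexamethasone-treated GR-REV, 174 in mock-treated GR-REV, 169 in dexamethasone-treated wild type and 161 in mock-treated wild type. The other 3 arrays were nearly level, and dexamethasone-treated GR-REV lay 6.57-fold above the highest of them. AT5G50335 had the same flat background, with 925 in dexamethasone-treated GR-REV, 273 in mock-treated GR-REV, 294 in dexamethasone-treated wild type and 278 in mock-treated wild type, 3.15-fold above the nearest. AT2G42710 was flat too at a smaller distance of 2.18-fold, with 527 in dexamethasone-treated GR-REV against 237, 242 and 241 in mock-treated GR-REV, dexamethasone-treated wild type and mock-treated wild type. These genes are grouped here for their level background. The fusion without hormone and the hormone without fusion each went with a difference of at most 0.11 in size, after rounding, on the log2 scale.

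Several members were below the floor everywhere else. AT1G70985 had a signal of 738 in dexamethasone-treated GR-REV, against 66.0 in mock-treated GR-REV, 82.0 in dexamethasone-treated wild type and 14.6 in mock-treated wild type, so it was at least 8.07-fold higher. AT3G46490, which belongs to the 2-oxoglutarate-dependent dioxygenases, had 524 in dexamethasone-treated GR-REV, against 39.2, 69.9 and 47.4 in mock-treated GR-REV, dexamethasone-treated wild type and mock-treated wild type, at least 5.73-fold. AT4G21740 followed with 254 against 45.1, 19.9 and 20.1 in the same order, at least 2.78-fold. In these 3 genes no other array exceeded the floor, so their true fold is unknown. AT1G33790, a gene of the jacalin lectin family, had 224 in dexamethasone-treated GR-REV and 89.3, 29.3 and 24.3 on the others, its mock-treated GR-REV signal being just under the floor. AT5G19340 had 213 in dexamethasone-treated GR-REV and 91.0, 71.4 and 43.2 on the others, again with mock-treated GR-REV just under the floor.

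Among genes of membranes and transport, AT1G32090, of the ERD family of membrane proteins that includes osmosensitive calcium channels, had 979 in dexamethasone-treated GR-REV, 251 in mock-treated GR-REV, 103 in dexamethasone-treated wild type and 154 in mock-treated wild type. It lay 3.91-fold above mock-treated GR-REV and was lower with dexamethasone in wild type, by -0.59 on the log2 scale. AT2G36630, of the TauE/SafE family of transporters, had 1124 in dexamethasone-treated GR-REV and 467, 453 and 420 in mock-treated GR-REV, dexamethasone-treated wild type and mock-treated wild type. Its 3 other arrays were close together, and dexamethasone-treated GR-REV lay 2.41-fold above the nearest. AT1G18830, listed under the synonym SEC31A, encodes a component of the COPII coat of vesicles that leave the endoplasmic reticulum. Its signal was 341 in dexamethasone-treated GR-REV and 122 in dexamethasone-treated wild type, with 34.9 in mock-treated GR-REV and 68.7 in mock-treated wild type below the floor. The difference between the GR-REV arrays was thus at least 3.73-fold, and dexamethasone-treated wild type was nearest, 2.80-fold lower.

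Cell wall genes were represented by EXLA2 and EXPA8, both of the expansin family, in which some proteins loosen the wall during growth. EXLA2 had a signal of 268 in dexamethasone-treated GR-REV, 49.0 in mock-treated GR-REV, 100 in dexamethasone-treated wild type and 96.2 in mock-treated wild type. EXPA8 had 282 in dexamethasone-treated GR-REV, 91.3 in mock-treated GR-REV, 132 in dexamethasone-treated wild type and 130 in mock-treated wild type. For both, mock-treated GR-REV was the lowest array, at or under the floor, so that the difference within the GR-REV arrays was at least 2.94-fold and at least 3.08-fold. Over the nearest array, dexamethasone-treated wild type, the distances were 2.68-fold and 2.13-fold. In wild type the difference with dexamethasone was 0.06 for EXLA2 and 0.02 for EXPA8 on the log2 scale. The annotation names 18 expansin probe sets, a family picked after the members were seen. The other 16 lay between -0.16 and 0.83 in the GR-REV difference, and only 5 of the 18 exceeded the floor on all arrays. None of these 16 reached 2-fold in either direction, while 1.22% of the 22746 probe sets were past 2-fold upward and 1.21% downward. The highest of them, EXLB1, had 167 in dexamethasone-treated GR-REV, 93.9 in mock-treated GR-REV, 116 in dexamethasone-treated wild type and 142 in mock-treated wild type. EXLA1 had 906 in dexamethasone-treated GR-REV and 980 in mock-treated GR-REV, against 873 and 1361 in dexamethasone-treated and mock-treated wild type.

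Regulators of gene expression were among the members. AGO7, also called ZIPPY, is an ARGONAUTE protein that uses a microRNA to start production of the small RNAs that restrict abaxial auxin response factors in Arabidopsis leaves. Its signal was 263 in dexamethasone-treated GR-REV, 104 in mock-treated GR-REV, 131 in dexamethasone-treated wild type and 126 in mock-treated wild type. It lay only 2.01-fold above the nearest array, and 2.51-fold above mock-treated GR-REV. AGO7 was the only ARGONAUTE gene matched by symbol, so no relative could be set beside it. CIL, a homologue of the chloroplast import regulator CIA2, had 558 in dexamethasone-treated GR-REV, 256 in mock-treated GR-REV, 277 in dexamethasone-treated wild type and 172 in mock-treated wild type, again 2.01-fold above the nearest. It was also higher in dexamethasone-treated wild type than in mock-treated wild type, by 0.69 on the log2 scale. A probe set shared by DREB2C and AT2G40350 was at 186 in dexamethasone-treated GR-REV and below the floor elsewhere, and its signal cannot be given to either gene.

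BHLH101, a transcription factor of the iron deficiency response in Arabidopsis, had a signal of 197 in dexamethasone-treated GR-REV, 92.6 in mock-treated GR-REV, 11.0 in dexamethasone-treated wild type and 2.99 in mock-treated wild type. Mock-treated GR-REV lay just above the floor and the wild type arrays below it, so the distance of 2.13-fold rests on a signal next to the floor. The annotation also names bHLH34, bHLH104, bHLH115 and bHLH121, known to act upstream of BHLH101 in that response. Their GR-REV differences were -0.03, -0.57, 0.09 and 0.66 on the log2 scale, so none of these 4 reached 2-fold. bHLH121 had 768 in dexamethasone-treated GR-REV and 487 in mock-treated GR-REV, against 261 and 254 in dexamethasone-treated and mock-treated wild type.

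Several members encode enzymes. AT3G12710, of the DNA glycosylase superfamily, had 1189 in dexamethasone-treated GR-REV, 274 in mock-treated GR-REV, 408 in dexamethasone-treated wild type and 320 in mock-treated wild type. It was 4.35-fold above mock-treated GR-REV and 2.91-fold above dexamethasone-treated wild type, the nearest array. AT1G26390, a berberine bridge enzyme-like oxidase, had 318 in dexamethasone-treated GR-REV and 112 in mock-treated GR-REV, with 51.5 in dexamethasone-treated wild type and 48.0 in mock-treated wild type below the floor. Its distance was 2.84-fold over mock-treated GR-REV. AT2G38180, of the SGNH hydrolase family, had 878 in dexamethasone-treated GR-REV and 417 in mock-treated GR-REV, against 134 and 121 in dexamethasone-treated and mock-treated wild type. That gene was therefore already 1.78 higher on the log2 scale in GR-REV without the hormone. AT2G29260, of the tropinone reductase-like dehydrogenases, had 294 in dexamethasone-treated GR-REV, 142 in mock-treated GR-REV, 138 in dexamethasone-treated wild type and 79.4 in mock-treated wild type.

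SAL2, a phosphatase of the SAL family, had 243 in dexamethasone-treated GR-REV, 86.3 in mock-treated GR-REV, 109 in dexamethasone-treated wild type and 118 in mock-treated wild type. It was at least 2.66-fold above mock-treated GR-REV, which was under the floor, and 2.06-fold above mock-treated wild type. UGT73B4, a glycosyltransferase that attaches sugars to small molecules, had 211 in dexamethasone-treated GR-REV, 97.8 in mock-treated GR-REV, 25.2 in dexamethasone-treated wild type and 67.7 in mock-treated wild type, 2.16-fold above mock-treated GR-REV. Of 7 UGT73 genes named, the other 6 lay between -0.48 and 0.41 in the GR-REV difference. Only 2 of the 7 exceeded the floor on all arrays, so a small difference can reflect a signal under the floor. Its neighbour on the chromosome, UGT73B5, had 249 in dexamethasone-treated GR-REV and 187 in mock-treated GR-REV, against 149 and 175 in dexamethasone-treated and mock-treated wild type. Over all 47 UGT probe sets, UGT73B4 was the only one at least 2-fold higher, and 3 were at least 2-fold lower in the GR-REV arrays, beside 1.22% and 1.21% of all probe sets. Of these 3, UGT85A2 was at -1.24 in GR-REV and -1.25 in wild type, and UGT84A3 at -1.05 and -0.92. Both were thus lower with dexamethasone in wild type too, while UGT76C2 was at -1.74 in GR-REV and 0.43 in wild type.

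The plastid gene psbK encodes a small subunit of photosystem II. Its signal was 11844 in dexamethasone-treated GR-REV, 4749 in mock-treated GR-REV, 5518 in dexamethasone-treated wild type and 4498 in mock-treated wild type, 2.15-fold above the nearest. Among 69 probe sets of plastid genes, psbK alone reached 2-fold in the GR-REV arrays, close to the 1.22% of all probe sets, and the other 68 lay between -0.61 and 0.93 on the log2 scale. The plastid median was -0.08 in GR-REV and 0.17 in wild type. The wild type median moved with scaling, to -0.03 after quantile normalization and 0.39 after division by the median. Of 15 psb genes, the median difference was -0.02 in GR-REV. psbI, which lies beside psbK in the plastid genome, had 5922 in dexamethasone-treated GR-REV, 4142 in mock-treated GR-REV, 4403 in dexamethasone-treated wild type and 4253 in mock-treated wild type. Its order of arrays differs from that of psbK only below the top, and its GR-REV difference was 0.52 on the log2 scale, against 1.32 for psbK.

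**Figure D2:**
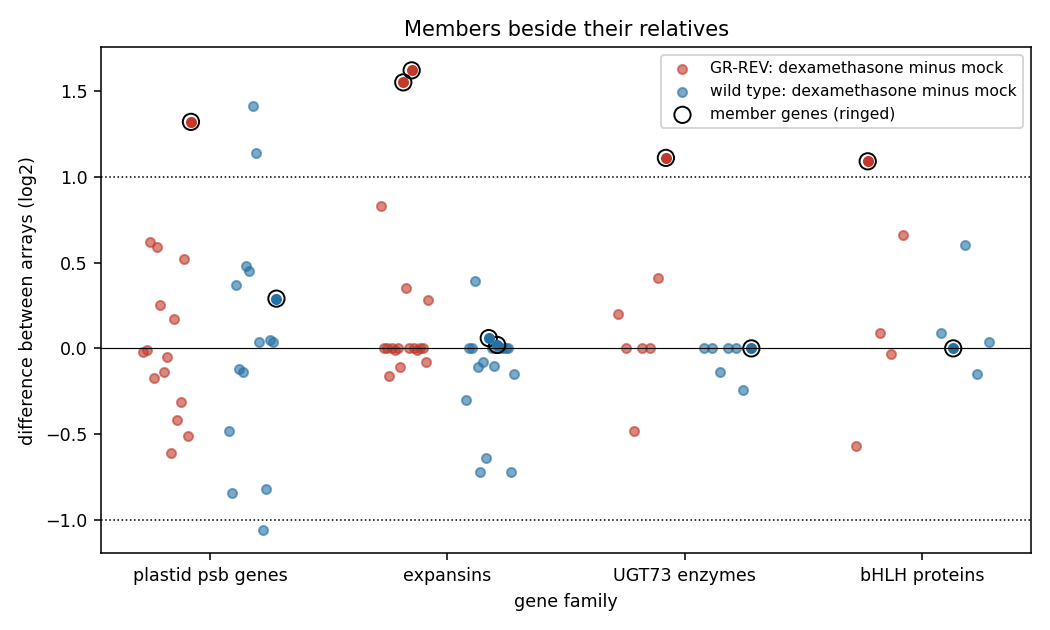
Differences between dexamethasone and mock arrays (y axis, log2) for plastid psb genes, expansins, UGT73 enzymes and the bHLH proteins named in the annotation; each point is 1 gene, GR-REV left and wild type right in each family, with member genes ringed. The ringed GR-REV points lie between 1.09 and 1.62, and the rule placed them at 1 or more. They lie above all their relatives in GR-REV, whose values the rule did not set, in families picked after the members were seen. The wild type differences of the plastid genes reach from -1.06 to 1.41.

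AT1G49200, a RING finger gene of the kind that acts in ubiquitin transfer, had 1291 in dexamethasone-treated GR-REV, 460 in mock-treated GR-REV, 349 in dexamethasone-treated wild type and 214 in mock-treated wild type. All 4 arrays differed in a graded order. AT3G22240 had 4665 in dexamethasone-treated GR-REV and 1413 in mock-treated GR-REV, against 447 and 568 in dexamethasone-treated and mock-treated wild type. As with AT1G49200, mock-treated GR-REV exceeded mock-treated wild type, by 1.31 for AT3G22240 and 1.10 for AT1G49200 on the log2 scale. Other members with no role given here were AT5G47060 (1258 in dexamethasone-treated GR-REV, and 481, 440 and 398 in mock-treated GR-REV, dexamethasone-treated wild type and mock-treated wild type) and AT4G09890 (447, and 146, 161 and 99.8 in that order). The first was nearly level on the other 3 arrays, at a distance of 2.61-fold, and the second less so, at 2.78-fold. AT1G69160 had 409 in dexamethasone-treated GR-REV, 119 in mock-treated GR-REV, 204 in dexamethasone-treated wild type and 160 in mock-treated wild type. AT4G16140 had 503 in dexamethasone-treated GR-REV, 215 in mock-treated GR-REV, 240 in dexamethasone-treated wild type and 250 in mock-treated wild type. Both sat at the edge of the rule, 2.00-fold and 2.01-fold above the nearest array, although AT1G69160 was 3.44-fold above mock-treated GR-REV. AT4G25780 had 448 in dexamethasone-treated GR-REV and 174 in mock-treated GR-REV, with 49.5 in dexamethasone-treated wild type below the floor and 119 in mock-treated wild type. AT2G40435, AT4G03820 and AT1G78260 had dexamethasone-treated GR-REV signals of 209, 250 and 320, 2.14-fold to 2.20-fold above mock-treated GR-REV, with both wild type arrays below the floor.

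The 46 members without a listed gene had a median distance of 1.23, against 1.27 for the 33 with 1 gene, and 20 of the 46 kept their place under all 5 alternatives of floor and scale. The farthest of all members was among them. That probe set had a signal of 2686 in dexamethasone-treated GR-REV, 150 in mock-treated GR-REV, 180 in dexamethasone-treated wild type and 136 in mock-treated wild type, 14.9-fold above the nearest. The next of them had 893 in dexamethasone-treated GR-REV and 162, 135 and 122 in the same order, 5.51-fold above mock-treated GR-REV. The other 3 arrays spanned 0.40 on the log2 scale in each of these probe sets, against 0.11 in AT3G50560.

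The wild type difference was limited by the rule to within 1 unit but not in sign. Over the members it ran from -0.63 to 0.94 with a median of 0.00, the same median as over all probe sets; 40 members were above 0, 20 below and 20 were at the floor on both arrays. Members were above 0 in 50.0% of cases and all probe sets in 26.8%. Of all probe sets 6100 were above 0, 8562 below and 8084 at 0 after the floor. The split of the members moved with scaling, since their median was 0.15 after quantile normalization and 0.19 after division by the array median. Over the 12252 probe sets whose signal exceeded the floor throughout, the median difference in wild type was -0.06 as deposited, 0.02 after quantile normalization and 0.16 after division by the median.

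**Figure D3:**
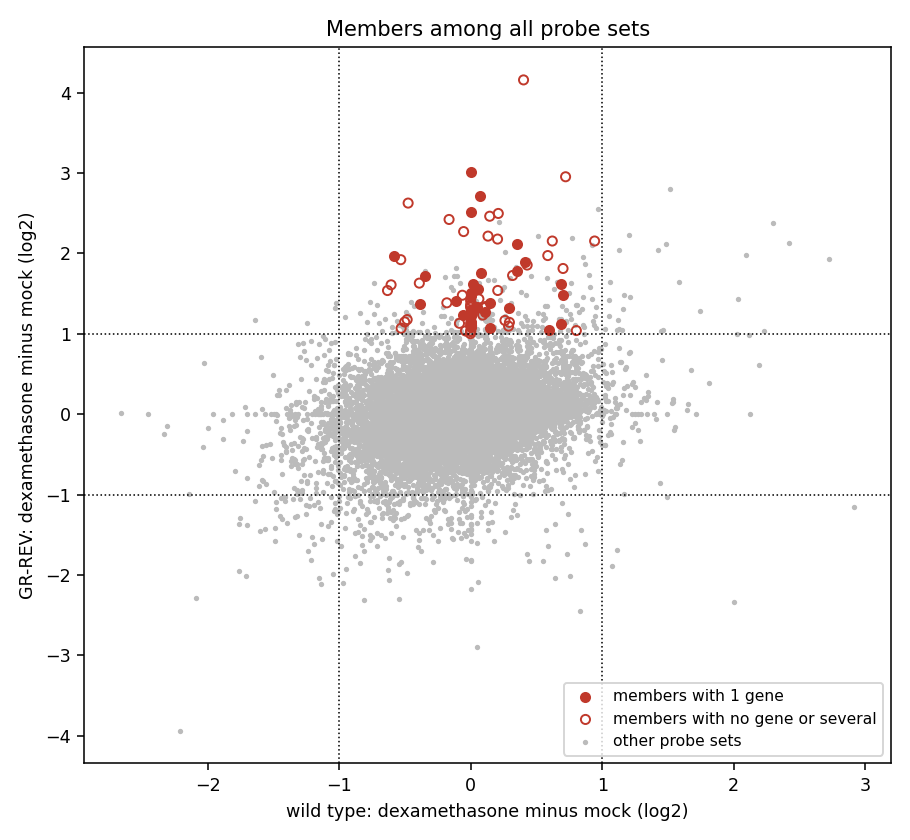
Dexamethasone minus mock on the log2 scale in wild type (x axis) and GR-REV (y axis) for all 22746 probe sets; red points are the 80 members, filled where 1 gene is listed, and dotted lines mark 1 unit. The members lie at the top within the wild type bounds by construction, with wild type differences from -0.63 to 0.94.

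The 2 mock arrays show where the members stood without hormone. Mock-treated GR-REV minus mock-treated wild type had a median of 0.01 over the members, with quartiles of -0.02 and 0.35. Over all probe sets the median was 0.00, with quartiles of -0.19 and 0.06. The share above 0 was 50.0% of the members and 28.6% of all probe sets. Of the members 40 were above 0, 26 below and 14 at 0 after the floor. Of all probe sets 6500 were above 0, 8281 below and 7965 at 0. At least 2-fold higher in mock-treated GR-REV were 4 of 80 members, against 2.36% of all probe sets: AT2G38180, AT3G22240, AT1G49200 and 1 without a listed gene. At least 2-fold lower were 2 of 80, both without a listed gene, against 2.95% of all probe sets. Both mock arrays had to lie below dexamethasone-treated GR-REV, so this comparison is not free of the rule. The 3 arrays other than dexamethasone-treated GR-REV spanned a median of 0.48 in the 47 members above the floor on all arrays, and 0.47 in all 12252 such probe sets.

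Genes beside the members on the chromosome were compared because the rule did not use them. In the order of locus tags, 31 probe sets belonged to genes directly next to a nuclear member with 1 gene. Their GR-REV difference had a median of 0.19, with 17 above 0, 3 below 0 and 11 at the floor on both arrays; none reached 2-fold in either direction. Over all 22746 probe sets the median was 0.00, with 31.5% above 0 and 6839 probe sets below 0. Past 2-fold were 1.22% upward and 1.21% downward, so none past 2-fold among 31 is near the background. The split of 17 above and 3 below 0 leaned upward beside all probe sets, which was not tested. The highest was AT3G50570, next to AT3G50560, with 252 in dexamethasone-treated GR-REV, 130 in mock-treated GR-REV, 52.1 in dexamethasone-treated wild type and 17.7 in mock-treated wild type, a difference of 0.96. AT4G25770, beside AT4G25780, followed at 0.83 with 351 in dexamethasone-treated GR-REV, 197 in mock-treated GR-REV, 142 in dexamethasone-treated wild type and 186 in mock-treated wild type. AT1G26380, beside AT1G26390 and of the same berberine bridge family, was at 0.53 in GR-REV and 0.92 in wild type. By locus tag the nuclear members fell on chromosomes 1 to 5 as 9, 7, 4, 7 and 5. Chromosome 3 held 12.1% of the members with 1 gene and 20.4% of all probe sets with 1 gene, a share that the left-out stretch lowers. No member with 1 gene had a further probe set, so none could be read a second time on the same array.

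Around the threshold the values run without a gap. The members with 1 gene just inside were AT1G69160 at 1.003, AGO7 at 1.005 and AT4G16140 at 1.008 on the log2 scale. Just outside were AT3G15980 at 1.000 after rounding, with 2095 in dexamethasone-treated GR-REV and 1047 in mock-treated GR-REV, hemf2 at 0.985 and AT3G43960 at 0.983. Within 0.1 of the threshold lay 22 members inside and 26 nonmembers outside. The same rule with each array on top, and the bound placed on the other genotype, found 80 probe sets for dexamethasone-treated GR-REV, 50 for mock-treated GR-REV, 31 for dexamethasone-treated wild type and 99 for mock-treated wild type. At 3-fold these counts were 15, 5, 2 and 9. The median distance was 1.23 for dexamethasone-treated GR-REV, 1.31 for mock-treated GR-REV, 1.15 for dexamethasone-treated wild type and 1.14 for mock-treated wild type. Mock-treated wild type thus had more probe sets at 2-fold, and dexamethasone-treated GR-REV more at 3-fold; with 1 array each there is no error on these counts.

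**Figure D4:**
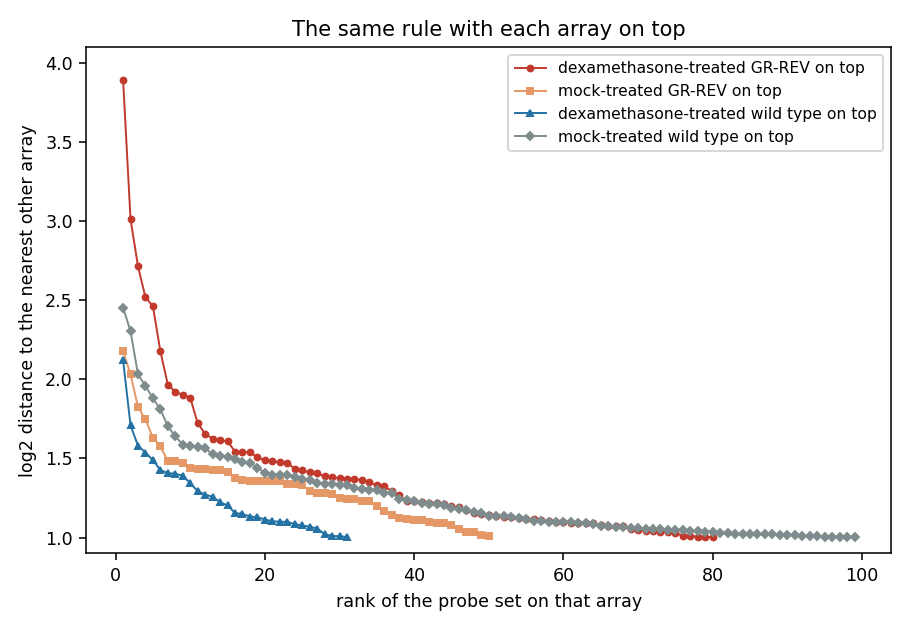
Log2 distance to the nearest other array (y axis) against rank (x axis) for the probe sets that meet the rule with each of the 4 arrays on top. Dexamethasone-treated GR-REV reaches the longest single distance, 3.90 against 2.18 for mock-treated GR-REV, 2.12 for dexamethasone-treated wild type and 2.45 for mock-treated wild type, while mock-treated wild type has the longest list, 99 against 80.

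Pathway genes were read from 12 lists: HD-ZIP III, LITTLE ZIPPER and HD-ZIP II genes, reported REV targets, auxin, brassinosteroid, gibberellin, shade, cell wall loosening, stomatal, touch and clock genes. Of their 91 genes the annotation matched 16, none of them LITTLE ZIPPER, brassinosteroid or touch genes. In the GR-REV arrays 4 of the 16 were at least 2-fold higher, namely HAT2, XTH32, STOMAGEN and EXPA8, and 2 at least 2-fold lower, GH3.3 and GID1B. The shares past 2-fold over all probe sets were 1.22% upward and 1.21% downward. In wild type the differences were 0.04 for HAT2, 0.85 for XTH32, 0.51 for STOMAGEN and 0.02 for EXPA8. They were -0.67 for GH3.3 and -1.01 for GID1B, so both were lower with dexamethasone in wild type too. STOMAGEN, at 498 in dexamethasone-treated GR-REV, was below dexamethasone-treated and mock-treated wild type, at 1024 and 720. HAT2, XTH32 and STOMAGEN are loci that the member rule leaves out by name, and EXPA8 met the rule, so these 4 were picked with the same signals and the count supports nothing. The median GR-REV difference of the 16 was 0.15, beside 0.00 over all probe sets. EXPA8 was the only member among the 16. The HD-ZIP III gene PHV had 384 in dexamethasone-treated GR-REV, 314 in mock-treated GR-REV, 276 in dexamethasone-treated wild type and 342 in mock-treated wild type, a GR-REV difference of 0.29. Of the auxin response and transport list, 4 of 14 were matched, and none was higher by 2-fold. The clock gene GI, whose level follows the time of day, had 531 in dexamethasone-treated GR-REV and 365 in mock-treated GR-REV, against 352 and 607 in dexamethasone-treated and mock-treated wild type, so its order of arrays was not that of the members.

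How firmly each gene met the rule varied with the floor and the scale. Under all 5 alternatives 29 of 80 members still met it, 9 of them with 1 gene: AT3G50560, AT1G32090, AT3G22240, AT5G50335, AT3G12710, AT1G49200, AT5G47060, AT2G36630 and psbK. AGO7 and AT1G69160 met it under 1 alternative, the lower floor, and EXPA8 and CIL under 2. The expansin EXLA2, UGT73B4, SAL2 and BHLH101 met it under 3. AT1G70985 failed only with the lower floor, where its wild type arrays no longer lay within 1 unit of each other, and AT3G46490 only with the higher one. AT4G25780 failed with the lower floor through the same bound, since its distance there was still 1.37, and failed with the higher floor too.

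**Figure D5:**
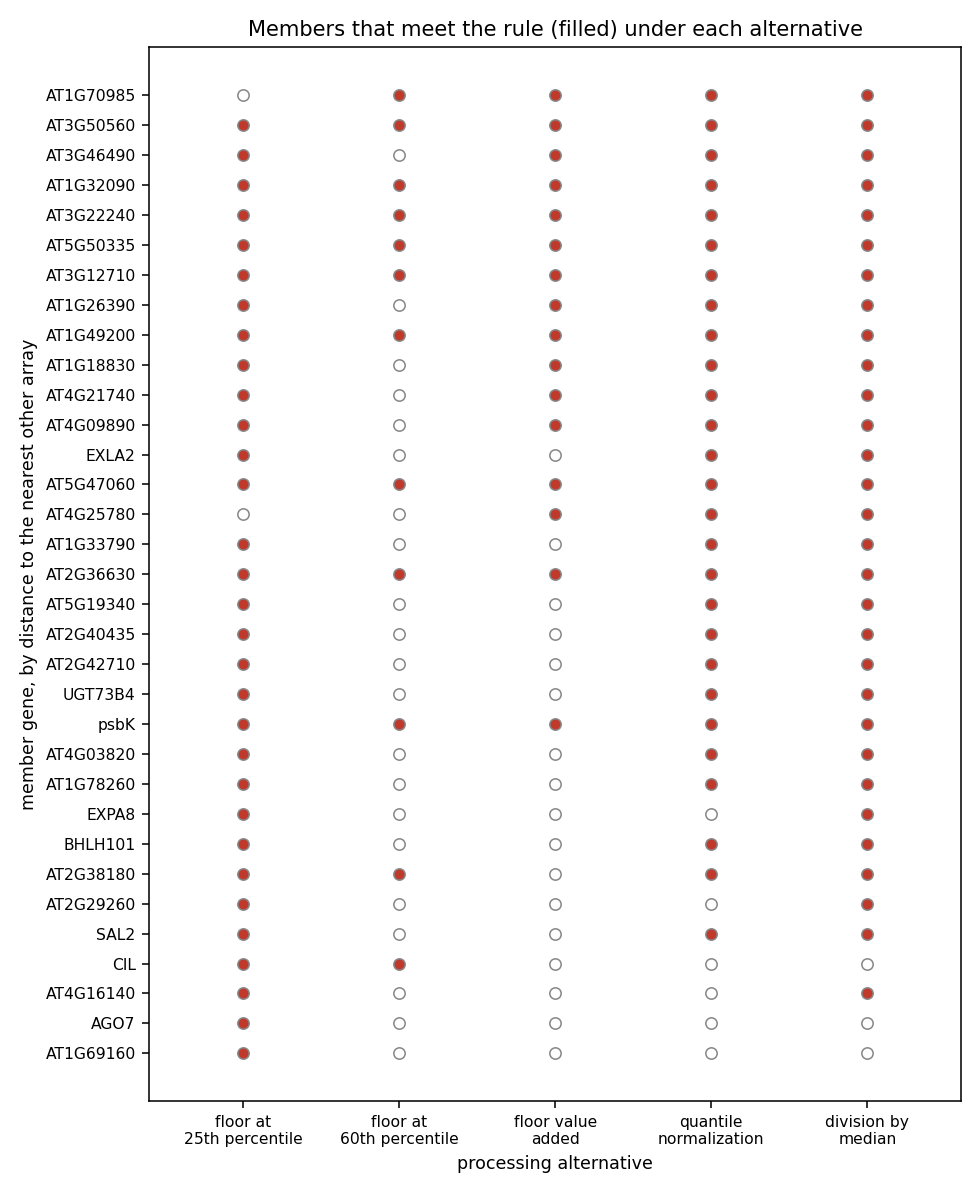
The 33 members with 1 gene (y axis, by distance to the nearest other array) under 5 processing alternatives (x axis); a filled point means that the gene still met the rule. The column for the floor at the 60th percentile keeps 12 of the 33 and that for the added floor value 16, against 31, 27 and 30 for the lower floor, quantile normalization and division by the median.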

How the data were processed

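Signals of 4 ATH1 arrays were used. The authors deposited 1 linear intensity per probe set, made with MAS5 per the submitters' processing notes; the MAS5 version is not given in the sources used here. Every array had a 2% trimmed mean of 500.0 to 500.1, so no further scaling was applied. Per the file headers, the settings files hold no RNA measurement. Of 22810 probe sets, 64 controls were left out, the floor was set at the 40th percentile, and log2 was taken (Python 3.11.15, pandas 2.3.3, numpy 2.4.6). Genes were named by the platform's annotation and RefSeq's TAIR10.1 gene table: 13513 probe sets had 1 gene (13436 matched), 503 several and 8730 none listed. Family roles are background knowledge.

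With 1 array per group no test was possible; values are described, and the number of arrays limits the precision. The code of the rule was run on simulated arrays in which the raised probe sets lay well above the floor. That run says nothing on members with arrays at the floor, or on whether any member would recur. Members and lists were chosen with earlier results of these data known. All members with 1 gene are named. Sequences were not used here.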

Additional observations from a re-analysis of the deposited data

Results flagged for a closer look

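Some named genes had opposite signs for dexamethasone in GR-REV and wild type. With 1 array per group, the difference between the genotypes was not tested. Among members, the GR-REV value is fixed by the rule. AT1G32090 had a log2 difference of 1.97 in GR-REV and -0.59 in wild type, and AT4G25780 had 1.37 and -0.38. AT3G22240 was at 1.72 and -0.35, SAL2 at 1.41 and -0.11, and AT4G16140 at 1.23 and -0.06. For AT4G25780 the signal of 49.5 in dexamethasone-treated wild type was below the floor, so its wild type difference was at least that far below 0. Among pathway genes that are no members, WRKY53 was at 0.61 in GR-REV and -1.22 in wild type, GI at 0.54 and -0.79, GID1A at 0.01 and -0.69, WES1 (GH3.5) at 0.32 and -0.50, and PHV at 0.29 and -0.31. Some of these signs change with the scaling of the arrays, of which mock-treated wild type stood apart. In wild type SAL2 was at 0.18 after quantile normalization and 0.10 after division by the median, and AT4G16140 at 0.12 and 0.15, so both then had the same sign as in GR-REV. GID1A, near 0 in GR-REV, was at -0.01 there after division by the median, with -0.48 in wild type. PHV was at 0.28 in GR-REV and -0.10 in wild type after division by the median.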

How the results depend on the processing

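The member count of 80 became 40 with a floor at the 60th percentile and 45 with the floor value added, of which 38 and 45 were among the 80. It was 15 at 3-fold. The treatments of the source names gave 50, the probe sets found with mock-treated GR-REV on top. That 0 of them were shared was fixed in advance. With the lower floor, quantile normalization and division by the median the count was 107, 73 and 79. It was 103 without the mock-treated wild type array, which also removes the bound on the wild type difference. The members' median distance of 1.23 was 0.93 and 1.02 with the higher floor and the added value. Their median between mock arrays, 0.01, was 0.23 with the lower floor, 0.15 with the added value, 0.13 after quantile normalization and 0.15 after division by the median; in wild type, 0.00 became 0.15 and 0.19 after these scalings. With the higher floor 2 pathway genes were at least 2-fold higher and 1 lower, and with the added value 1 was lower. Of 165 single-gene distances, 118 stayed at 1 or more and 47 fell below it. With the higher floor some fell to 0.00, among them BHLH101, SAL2, EXLA2, AGO7 and UGT73B4. None changed sign, but the other floors and the added value keep the order of arrays, so they could not change one. Low signals limit these counts. The motif search was not run. No paired analysis was possible because each group has 1 array.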
